A study of Mus musculus with 2 samples.

Results

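The 10 genes described here encode the enzymes that write, copy and oxidise cytosine methylation in DNA and the catalytic core of Polycomb repressive complex 2 (PRC2). They are Dnmt1, Uhrf1, Dnmt3a, Dnmt3b, Tet1, Tet2, Tet3, Ezh1, Ezh2 and Suz12, chosen by symbol, and each of them had 1 of the 24369 rows of the expression table. The table holds RPKM values (read numbers divided by gene length and by library depth) for type II pneumocytes (alveolar type 2 cells), the surfactant-making cells of the lung alveolus, sorted from wild-type mice of strain C57BL6. There was 1 library from postnatal day 28 (P28) and 1 library from postnatal day 7 (P07), and the groups differ in no other labelled genotype or agent. The sources used here do not say whether a library pooled several animals or which markers guided the sort. With 1 library per age there is no replicate check and no p-value, so "higher" and "lower" compare these libraries, and every interval is an exact 95% counting interval that covers counting error only.

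DNMT1 copies methylation at CpG sites onto the new DNA strand during replication, and UHRF1 recruits it there by binding hemimethylated CpGs. DNMT3A and DNMT3B place methylation at new sites, and the TET dioxygenases oxidise methylcytosine, the step that starts active demethylation. PRC2 methylates lysine residue K27 of histone H3, a mark of repressed developmental genes. Its catalytic subunit is either EZH2, which is typical of dividing and immature cells, or EZH1, which persists in resting differentiated cells, and SUZ12 holds the complex together.

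All 10 genes matched RefSeq promoter windows of 300 bases (250 before to 50 after a start, build GRCm38.p6), 15 windows in all. The windows of Ezh2 (chr6:47594981-47595280, minus strand), Ezh1 (chr11:101226414-101226713, minus strand), Dnmt1 (chr9:20952574-20952873, minus strand, the most downstream of 3 listed starts) and Uhrf1 (chr17:56304063-56304362, plus strand, the second of 2) are shown, since the values below turn on the Ezh1 and Ezh2 pair and on the maintenance pair. They run 5′ to 3′ in the direction of the gene, and capitals mark 2 forms of the E2F motif, TTTCCCGC and TTTGGCGC, searched on both strands.
Ezh2: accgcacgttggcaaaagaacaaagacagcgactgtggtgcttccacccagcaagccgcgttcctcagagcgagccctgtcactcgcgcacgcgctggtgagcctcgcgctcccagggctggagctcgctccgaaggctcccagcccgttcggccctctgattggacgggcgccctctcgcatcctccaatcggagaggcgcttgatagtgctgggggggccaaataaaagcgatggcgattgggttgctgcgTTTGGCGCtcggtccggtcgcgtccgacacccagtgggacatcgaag
Ezh1: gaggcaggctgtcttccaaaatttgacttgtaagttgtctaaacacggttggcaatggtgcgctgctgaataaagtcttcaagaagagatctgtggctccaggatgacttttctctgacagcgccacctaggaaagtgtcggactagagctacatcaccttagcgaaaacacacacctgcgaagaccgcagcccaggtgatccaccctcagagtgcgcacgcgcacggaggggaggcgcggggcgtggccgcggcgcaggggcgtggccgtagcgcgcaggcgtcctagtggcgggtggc
Dnmt1: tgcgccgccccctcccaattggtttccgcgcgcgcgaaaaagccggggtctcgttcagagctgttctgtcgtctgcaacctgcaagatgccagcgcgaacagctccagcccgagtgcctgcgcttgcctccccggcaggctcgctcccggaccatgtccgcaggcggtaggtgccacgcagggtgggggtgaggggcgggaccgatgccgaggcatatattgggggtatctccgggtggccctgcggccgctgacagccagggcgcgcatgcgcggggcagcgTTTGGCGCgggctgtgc
Uhrf1: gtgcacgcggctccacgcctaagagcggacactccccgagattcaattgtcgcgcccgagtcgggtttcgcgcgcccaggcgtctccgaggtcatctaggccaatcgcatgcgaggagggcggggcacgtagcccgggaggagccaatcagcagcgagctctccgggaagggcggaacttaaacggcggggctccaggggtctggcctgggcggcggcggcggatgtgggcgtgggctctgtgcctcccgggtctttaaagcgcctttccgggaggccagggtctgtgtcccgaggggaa
The form TTTGGCGC began 3 bases after the Ezh2 start and 33 bases after the most downstream Dnmt1 start. TTTCCCGC began 219 bases before the Suz12 start. Neither form was in the other Dnmt1 windows or in those of the other 7 genes, and other forms of the E2F motif were not searched. Either form was in the windows of 1.80% of all 27025 genes (1.56% of 32851 windows), and in those of 7 of 31 genes with a window from a list of S phase and mitosis genes used below. The motif CCAAT, on both strands, was in the windows of 5 of the 10 genes (Dnmt1, Uhrf1, Tet3, Ezh2 and Suz12), against 41.1% of all genes, and TTTGAA was in those of 3 (Dnmt1, Dnmt3b and Suz12), against 20.2%. Observed over expected CpG was 0.999 in the Ezh2 window, 0.882 in the Ezh1 window, 0.910 in this Dnmt1 window and 0.959 in this Uhrf1 window, with a median of 0.384 over all windows. It was lower in the windows of Dnmt1 and Uhrf1 that are not shown, at 0.101 and 0.5 for Dnmt1 and 0.472 for Uhrf1. Over the windows of the other genes it ran from 0.468 (1 of the Dnmt3a windows) to 1.17 (Tet2). No match to one motif overlapped a match to another. A match describes letters in a window and shows no binding.

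The spacing of the lowest RPKM values puts the reads behind the scaling at about 24500000 for the P28 library and 17600000 for the P07 library. The type 2 markers were abundant in both (8 of 8 measured, 29030 RPKM in sum at P28 and 16531 at P07, Sftpc alone at 24085 and 13343). Markers of other cells had lower sums, that of the club and airway markers being the highest of these. The 8 endothelial markers summed to 23.4 RPKM at P28 and 45.9 at P07, the 8 fibroblast markers to 10.8 and 26.9 (Lum with no read at P07), the 6 type 1 cell markers to 176 and 241, the 5 ciliated cell markers to 103 and 92.6, the 6 erythroid markers to 1.32 and 42.5, and the 8 leukocyte markers to 26.2 and 23.5, with Marco and C1qa at 0 in both. These sums hide differences between markers. Lcp1 alone gave 20.7 and 15.7 RPKM of the leukocyte sums, and Ptprc had 0.00718 and 0.0902. Srgn was lower at P28 as deposited, as was Ptprc on about 1 read at P28 and 8 at P07, while Lcp1 and Cd68 were higher. Cd3e rested on about 1 read in each library, so no direction can be read from it. For Cd79b the ratio was 1.06, with an interval of 0.757 to 1.50 that includes 1. Of the 8 fibroblast markers 5 were lower at P28, and Dcn, Pdgfra and Lum were higher. The 5 club and airway markers summed to 18966 RPKM at P28 and 7222 at P07. Of these Scgb1a1 alone gave 18104 and 6764 RPKM, above each of the 8 type 2 markers except Sftpc in both libraries. Xist stood at 0.245 RPKM at P28 and 52.7 at P07, while the Y-linked genes Ddx3y, Kdm5d, Uty and Eif2s3y had 2.16 to 7.19 RPKM at P28 and no read at P07, so age and the sex of the animals cannot be told apart. In such bulk libraries fewer cells of a type and less RNA per cell cannot be told apart either. The total was 143071 RPKM at P28 and 108758 at P07. Rescaling the P28 library to the P07 total moved the median log2 ratio of all measured genes by -0.28, from -0.08 to -0.36.

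Of the 10 genes, 9 were lower at P28 as deposited and Ezh1 alone was higher, where 60.7% of measured genes had a log2 ratio below 0. Differences between ages are given as the plain RPKM ratio with its interval and, for calls, as the log2 ratio of (RPKM + 1), called at 2-fold among genes that reached 1 RPKM in either library (measured genes). Of the 10, 9 were measured, Uhrf1 and Tet1 through the P07 library only, and Dnmt3b stayed under 1 RPKM in both. Only Uhrf1 was called lower, with a log2 ratio of -1.0, and none was called higher, where 1.96% of the 9653 measured genes were lower and 1.18% higher (3.14% in either direction). Uhrf1 lay at the edge of that call, since 188 of the 189 genes called lower had a smaller log2 ratio. The next were Ezh2 (-0.89), Dnmt3a (-0.72), Tet1 (-0.67) and Dnmt1 (-0.65). On plain ratios, where no pseudocount damps low genes, Uhrf1, Tet1 and Ezh2 were at 0.5 or less, as were 6.25% of measured genes. With a pseudocount of 0.1 the same 3 were called (5.49% of measured genes), and after rescaling to equal totals Uhrf1, Dnmt3a and Ezh2 were called lower and none higher (4.02% and 0.642%). None of the 10 was called lower with the median log2 ratio set to 0 (Uhrf1 at -0.92) or with equal upper quartiles (Uhrf1 at -0.99). None was with a pseudocount of 5 or among genes reaching 5 RPKM either. A pseudocount of 5 calls a gene lower only from 5 RPKM or more at P07. Uhrf1, Tet1 and Ezh2 stayed under 5 RPKM in both libraries, so neither of these settings could call them. The interval of the ratio lay wholly below 1 for 8 of the 9 measured genes and wholly above 1 for Ezh1, where 33.4% and 18.2% of 9238 measured genes with a transcript length did so.

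**Figure D1:**
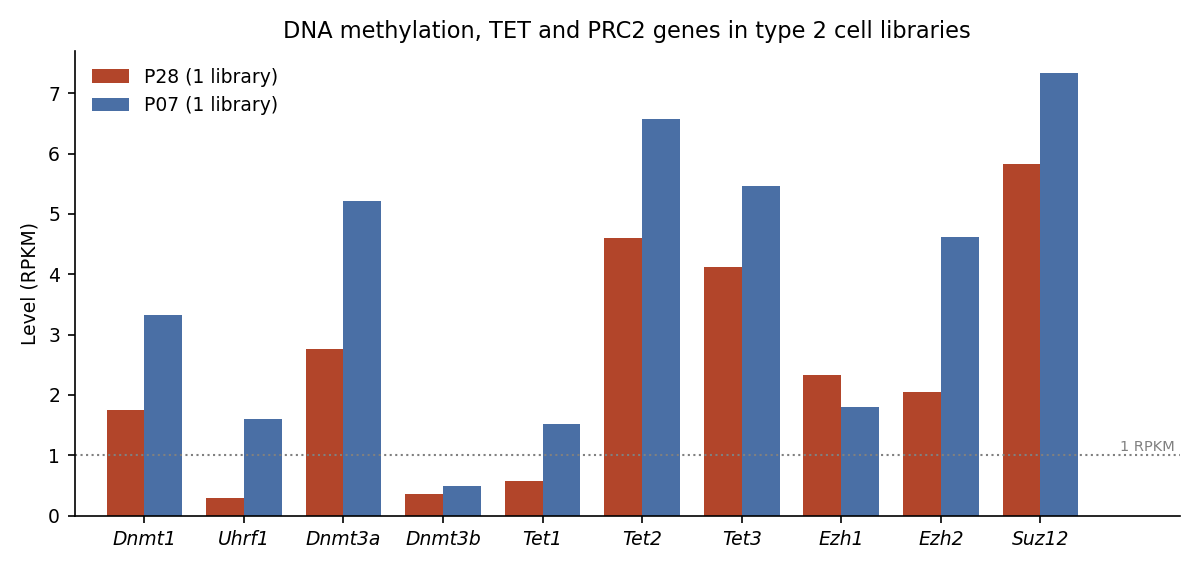
Level of each gene in RPKM (y axis, linear from 0) in the P28 library (left bar) and the P07 library (right bar), with 1 library per age and so no error bar. The P28 bar is the lower one for 9 genes, and for Ezh1 it stands at 2.33 against 1.80 RPKM.

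Dnmt1 and Uhrf1, the maintenance pair, were both lower at P28, Uhrf1 by more. Dnmt1 (minus strand of chromosome 9, 20907209-20959888 in GRCm38, a protein-coding gene like the other 9) had 1.75 RPKM at P28 and 3.33 at P07. That is 1.90-fold lower (1.60 to 2.26) from about 232 and 316 reads. Uhrf1 (plus strand of chromosome 17, 56303321-56323486) had 0.301 RPKM at P28 and 1.60 at P07, or 5.33-fold lower (3.39 to 8.45) from about 26 and 98 reads. Uhrf1 was thus detected in both libraries, but at P28 on few reads, which makes its interval wide. Within a library, where scaling has no part, Dnmt1 stood at 5.83 times the level of Uhrf1 at P28 (3.82 to 8.98) and 2.08 times at P07 (1.65 to 2.63). This ratio was 2.80-fold larger at P28 (1.71 to 4.59). Uhrf2, a paralog of Uhrf1, had 2.52 RPKM at P28 and 2.02 at P07, a ratio of 1.24 (0.991 to 1.56) whose interval includes 1, with log2 ratios of 0.22 as deposited and -0.05 after rescaling to equal totals. Uhrf2 was thus 8.37 times as high as Uhrf1 at P28 (5.46 to 12.9) and 1.26 times at P07 (0.960 to 1.66).

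Of the de novo methyltransferase genes, Dnmt3a was lower at P28 and Dnmt3b was scarce in both libraries. Dnmt3a (plus strand of chromosome 12, 3806007-3914443) had 2.76 RPKM at P28 and 5.22 at P07, 1.89-fold lower (1.69 to 2.11). Dnmt3b (plus strand of chromosome 2, 153649450-153687730), used mostly in early embryos, had 0.366 RPKM at P28 and 0.499 at P07. At about 37 and 36 reads, a difference of Dnmt3b was not detectable as deposited (ratio 0.735, 0.452 to 1.20). After rescaling to equal totals its ratio was 0.559, with an interval of 0.344 to 0.911 that lies below 1. The ratio of Dnmt3a to Dnmt1 was 1.58 at P28 (1.35 to 1.84) and 1.57 at P07 (1.37 to 1.79), a fold of 1.01 with an interval of 0.818 to 1.24. Dnmt3a held 56.6% of the summed DNMT level at P28 and 57.7% at P07, Dnmt1 35.9% and 36.8%, and Dnmt3b 7.50% and 5.51%. The family summed to 4.88 RPKM at P28 and 9.05 at P07. Dnmt3l, the cofactor of de novo methylation in germ cells, had no read in either library.

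Among the TET genes, Tet2 and Tet3 were the abundant members in both libraries and Tet1 was the scarce one. Tet1 (minus strand of chromosome 10, 62804570-62908996) had 0.580 RPKM at P28 and 1.52 at P07, 2.62-fold lower (2.20 to 3.12). Tet2 (minus strand of chromosome 3, 133463679-133545139) had 4.61 RPKM at P28 and 6.57 at P07, 1.43-fold lower (1.31 to 1.56). Tet3 (minus strand of chromosome 6, 83362373-83459084) had 4.11 RPKM at P28 and 5.46 at P07, 1.33-fold lower (1.22 to 1.45). The scarcest TET gene thus had the largest fold of the family. Tet2 was 7.94 times as high as Tet1 at P28 (6.82 to 9.27) and 4.32 times at P07 (3.84 to 4.88), and Tet3 was 7.09 times as high at P28 (6.09 to 8.28) and 3.59 times at P07 (3.19 to 4.05). Tet1 made up 6.24% of the summed TET level at P28 and 11.2% at P07. The TET sum was 9.30 RPKM at P28 and 13.6 at P07, which is 1.90 times the DNMT sum at P28 and 1.50 times at P07.

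In PRC2 the 2 catalytic genes stood on opposite sides of equality as deposited, Ezh2 lower and Ezh1 higher at P28. Ezh2 (minus strand of chromosome 6, 47530139-47595341) had 2.04 RPKM at P28 and 4.62 at P07, 2.26-fold lower (1.83 to 2.82) from about 139 and 226 reads. Ezh1 (minus strand of chromosome 11, 101191115-101226463) had 2.33 RPKM at P28 and 1.80 at P07, a ratio of 1.30 (1.05 to 1.62) from about 240 and 132 reads. Ezh1 was therefore the only one of the 10 genes above its P07 level, and after rescaling to equal totals it was not, with a ratio of 0.986 (0.797 to 1.23). The ratio of the pair within a library does not depend on that scaling. It was 1.14 at P28 (0.925 to 1.42) and 0.389 at P07 (0.310 to 0.482), a fold of 2.93 between the libraries (2.17 to 4.03). Ezh1 made up 53.3% of the summed EZH level at P28 and 28.0% at P07, while the sum was 4.37 RPKM at P28 and 6.41 at P07. At P28 the levels of Ezh1 and Ezh2 could not be told apart, and at P07 Ezh2 was the higher.

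Suz12 (plus strand of chromosome 11, 79993106-80034123), which both EZH forms of the complex need, was the highest of the 10 genes in both libraries. It had 5.82 RPKM at P28 and 7.34 at P07, 1.26-fold lower (1.12 to 1.42). The scaffold gene was 2.85 times as high as Ezh2 at P28 (2.38 to 3.46) and 1.59 times at P07 (1.36 to 1.86). It was 2.50 times as high as Ezh1 at P28 (2.15 to 2.91) and 4.09 times at P07 (3.39 to 5.0). Exons of Dnmt3a, Ezh2, Suz12 and Tet2 overlap those of a gene on the opposite strand in the annotation, with longest overlaps of 43 to 178 bases. Nothing states that the counting used strand, and of these partners Dnmt3aos alone is in the table, at 0.0881 RPKM at P28 and 0.164 at P07.

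**Figure D2:**
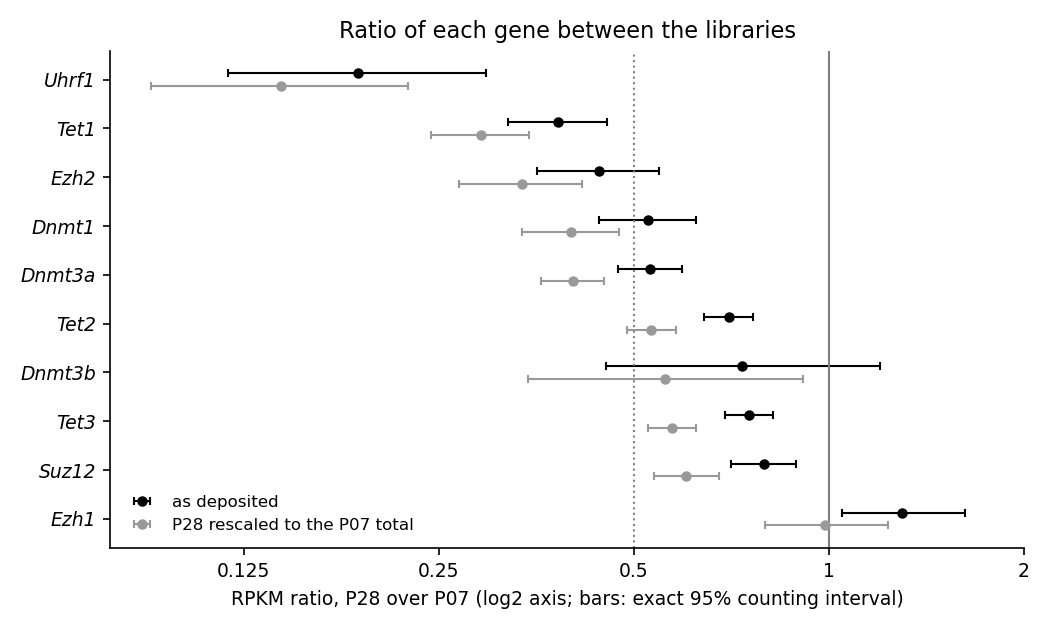
RPKM ratio of P28 over P07 for each of the 10 genes (x axis, log2 scale) as deposited (black) and with the P28 library rescaled to the P07 total (grey), with exact 95% counting intervals as bars and 0.5 marked by a dotted line. Uhrf1 lies farthest to the left at 0.188, and Ezh1 lies at 1.30 as deposited and at 0.986 after rescaling.

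**Figure D3:**
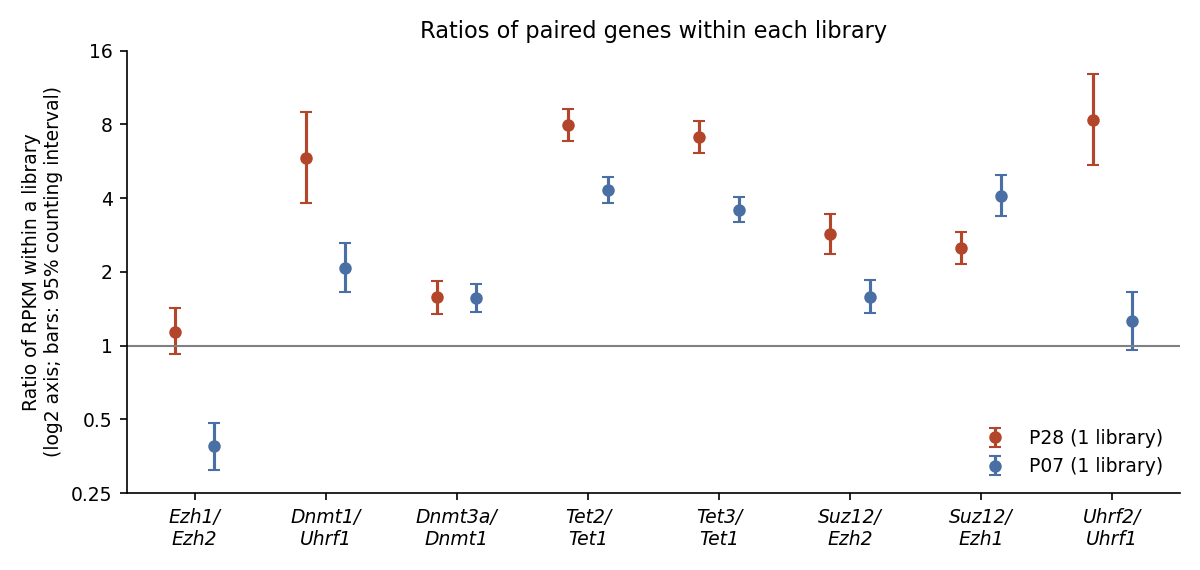
Ratio of the RPKM of paired genes within the P28 library (left point) and the P07 library (right point), on a log2 axis with 95% counting intervals as bars. The ratio of Ezh1 to Ezh2 is 1.14 at P28 and 0.389 at P07, and that of Dnmt3a to Dnmt1 is 1.58 and 1.57.

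The order of levels at P28, from high to low, was Suz12, Tet2, Tet3, Dnmt3a, Ezh1, Ezh2, Dnmt1, Tet1, Dnmt3b and Uhrf1. Of these neighbours, Ezh1 and Ezh2, Ezh2 and Dnmt1, and Dnmt3b and Uhrf1 had levels whose ratio had an interval that includes 1. At P07 the order was Suz12, Tet2, Tet3, Dnmt3a, Ezh2, Dnmt1, Ezh1, Uhrf1, Tet1 and Dnmt3b. There the intervals included 1 for Tet3 and Dnmt3a, Dnmt3a and Ezh2, Ezh1 and Uhrf1, and Uhrf1 and Tet1. Levels of different genes also depend on the gene lengths behind the RPKM, which are not stated and which the intervals do not cover. Transcripts of Dnmt3a, for one, ran from 5424 to 9685 bases. The first 4 places were thus held by the same genes in both libraries, while Uhrf1 took the last place at P28 and the eighth at P07. The range over the 10 genes was 0.301 to 5.82 RPKM at P28 and 0.499 to 7.34 at P07, and the median measured gene had 3.07 and 3.29 RPKM.

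Most genes of a list for S phase and mitosis had lower levels at P28, 37 of the 38 without any filter, with a median log2 ratio of -0.65. Of the 38, 33 were measured, 9 of them called lower and none higher, where 1.96% and 1.18% of all measured genes were. Their median was -0.73 beside -0.08 over all measured genes. The filter itself favours lower values here, since 15 of the 33, among them Mcm2, Gins2 and Aurkb of the 9 called, reached 1 RPKM through the P07 library only. The 9 calls became 22 with a pseudocount of 0.1 (5.49% of all measured genes lower) and 13 with equal totals (4.02%). They became 4 among the 5 genes reaching 5 RPKM and 1 with a pseudocount of 5. That pseudocount cannot call a gene lower that had under 5 RPKM at P07. Mki67, the proliferation marker, had 3.56 RPKM at P28 and 14.8 at P07 (4.14-fold lower, 3.84 to 4.48). Pcna, the replication clamp that brings DNMT1 to the fork, had 19.4 and 27.5 RPKM (1.42-fold lower, 1.28 to 1.58), and the replication helicase gene Mcm2 had 0.663 and 2.36 (3.55-fold lower, 2.58 to 4.95). Top2a, the mitotic topoisomerase, had 2.69 RPKM at P28 and 9.41 at P07, and Rrm2, which makes nucleotides for replication, had 1.08 and 4.71. The other genes called lower were Gins2, Ccna2, Ccnb2, Aurkb and Ube2c.

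Set beside this list, whose measured plain ratios ran from 0.207 (Aurkb) to 1.33 (E2f2) with a median of 0.419, the 10 genes ran from below its low end to near its high end. The ratio of Uhrf1, 0.188, was under those of the 33, but Uhrf1 and 15 of the 33 were measured through P07 only, and Ccne1 of the same list, not measured, had a ratio of 0.143 from about 2 and 10 reads. Of the measured list genes, 12 of the 33 were under Tet1, 18 under Ezh2 and 24 under Dnmt1 and Dnmt3a alike. At least 29 of the 33 were under each of Tet2, Dnmt3b, Tet3, Suz12 and Ezh1. Relative to Mki67 within a library, Ezh2 stood at 0.574 at P28 (0.475 to 0.685) and 0.313 at P07 (0.272 to 0.359), and Dnmt1 at 0.493 (0.425 to 0.570) and 0.226 (0.201 to 0.254). Both were thus higher at P28 against Mki67, by 1.83-fold (1.45 to 2.30) and 2.18-fold (1.80 to 2.64). For Uhrf1 the fold against Mki67 was 0.778, with an interval of 0.487 to 1.23 that includes 1. Against Pcna the ratios of Ezh2, Dnmt1 and Uhrf1 were lower at P28, with folds of 0.628 (0.490 to 0.796), 0.747 (0.609 to 0.914) and 0.266 (0.166 to 0.425). Among the measured markers of other cells, 5 of 7 endothelial, 2 of 6 fibroblast, 5 of 5 erythroid and 1 of 4 leukocyte markers were called lower, against 1.96% of all measured genes. None of the 6 type 1 or 5 ciliated cell markers was called as deposited, and 4 of 5 club and airway markers were called higher, against 1.18%. The 5 erythroid markers, 2 of the endothelial and 1 of the fibroblast ones called lower were measured through P07 only. After rescaling to equal totals 5 endothelial, 5 erythroid, 3 type 1, 3 fibroblast and 1 leukocyte markers were called lower, against 4.02% of measured genes. There 3 club and airway markers were called higher, against 0.642%. The part of such cells, or of cycling cells, in the values of the 10 genes was not tested.

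**Figure D4:**
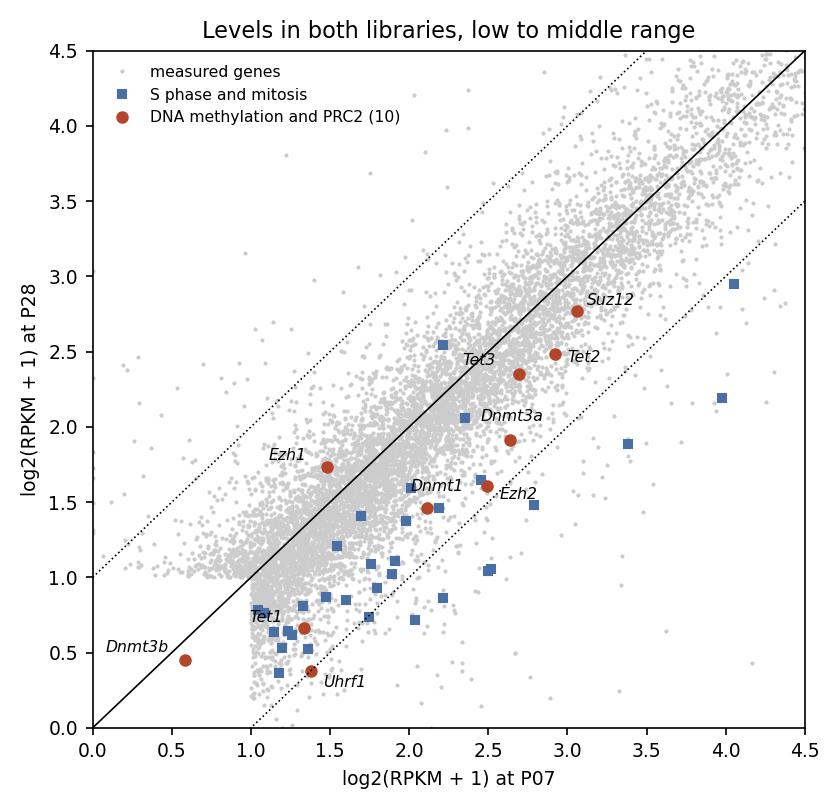
Level at P28 (y axis) against level at P07 (x axis), both as log2(RPKM + 1), for measured genes (grey), S phase and mitosis genes (blue squares) and the 10 genes (red, named), in the range up to 4.5. The solid line marks equal levels and the dotted lines 2-fold, with Uhrf1 on the lower dotted line and Ezh1 the only named gene above the solid one.

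Of 11 PRC2 partner genes 8 were measured and none was called in either direction, with a median log2 ratio of -0.17. Eed, the subunit that reads the mark, had 2.92 RPKM at P28 and 3.20 at P07 (ratio 0.914, 0.712 to 1.18), and the histone-binding subunit gene Rbbp4 had 3.35 and 3.70 (0.906, 0.774 to 1.06). For both the interval includes 1. Rbbp7, its X-linked paralog, had 8.51 RPKM at P28 and 11.1 at P07 (1.30-fold lower, 1.14 to 1.49). The accessory subunit genes Jarid2 (2.03 and 2.69 RPKM) and Aebp2 (3.34 and 4.44) were 1.32-fold (1.10 to 1.59) and 1.33-fold lower (1.11 to 1.58). Phf1, a Polycomb-like accessory subunit, was the one partner with an interval above 1, at 2.78 RPKM at P28 and 1.74 at P07 (ratio 1.59, 1.19 to 2.13).

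Of 25 genes of PRC1, the complex that ubiquitinates histone H2A, 19 were measured and none was called, with a median log2 ratio of -0.04. The interval lay below 1 for 8 and above 1 for 2. The E3 ligase gene Rnf2 had 2.73 RPKM at P28 and 3.51 at P07 (1.29-fold lower, 1.06 to 1.58), and its partner Bmi1 had 4.31 and 3.76 (ratio 1.15, 0.970 to 1.35). Pcgf6 and Bcor, subunits of variant PRC1 forms, had 1.10 and 2.18 RPKM at P28 and 2.44 and 3.78 at P07, which is 2.20-fold (1.58 to 3.16) and 1.74-fold lower (1.50 to 2.03). Rybp, the subunit of variant PRC1 that excludes CBX proteins, had 7.85 RPKM at P28 and 4.52 at P07 (ratio 1.74, 1.54 to 1.98). Its log2 ratio of 0.68 was still 0.34 after rescaling to equal totals.

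Of 7 genes that remove the Polycomb marks, 6 were measured, none was called lower and Uty was called higher, with a median log2 ratio of -0.29. The interval lay below 1 for 4 and above 1 for Uty alone. Uty is Y-linked, with 2.57 RPKM at P28 and no read at P07, where 3 reads would give 0.0362 RPKM. Its X-linked paralog Kdm6a, an H3K27 demethylase gene, had 4.45 RPKM at P28 and 7.26 at P07 (1.63-fold lower, 1.47 to 1.81). Rbbp7, Bcor and Kdm6a are X-linked, and the part of the difference in Xist and Y-linked genes in their values was not tested. The autosomal demethylase gene Kdm6b had 4.49 and 4.69 RPKM (ratio 0.957, 0.856 to 1.07). Asxl2, a cofactor of the H2A deubiquitinase, had 4.29 RPKM at P28 and 6.46 at P07 (1.51-fold lower, 1.33 to 1.71).

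Of 16 methyl-DNA readers and methylation partners, 14 were measured and none was called, with a median log2 ratio of -0.05. Hells, the remodeller that opens chromatin to DNA methylation, had 0.310 RPKM at P28 and 1.37 at P07 (4.43-fold lower, 3.13 to 6.31). It passed the filter through the P07 library only, with about 45 and 142 reads. The reader gene Mbd1 had 3.65 RPKM at P28 and 1.59 at P07 (ratio 2.29, 1.78 to 3.00, log2 ratio 0.84). The methyl-DNA reader gene Zbtb4 had 6.94 RPKM at P28 and 5.65 at P07 (ratio 1.23, 1.12 to 1.34), with log2 ratios of 0.26 as deposited and -0.08 at equal totals. Zfp57, which keeps methylation at imprinted loci, had 3.19 and 3.99 RPKM (1.25-fold lower), and its interval includes 1.

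Of 19 genes of demethylation and base excision repair, 14 were measured, 1 was called lower and none higher, with a median log2 ratio of -0.19. The one called was Neil3, a DNA glycosylase gene, with 0.235 RPKM at P28 and 1.71 at P07 (7.30-fold lower, 4.0 to 14.4) from about 13 and 68 reads. Neil3, the one gene called lower in the 6 partner lists, was measured through the P07 library only. Tdg, the glycosylase that removes the bases TET enzymes produce, stayed under 1 RPKM, with 0.854 at P28 and 0.524 at P07 (ratio 1.63, 1.04 to 2.58). The repair genes Xrcc1 (1.06 and 2.32 RPKM) and Parp1 (2.10 and 3.99) were 2.19-fold (1.56 to 3.05) and 1.90-fold lower (1.58 to 2.29), while the polymerase gene Polb had 2.52 RPKM at P28 and 1.48 at P07 (ratio 1.70, 1.11 to 2.69). Repair genes thus stood on both sides of 1.

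Of 15 genes that supply the methyl donor S-adenosylmethionine, 11 were measured, none was called lower and 1 was called higher, with a median log2 ratio of -0.00. That gene was Ahcyl2, a relative of S-adenosylhomocysteine hydrolase, with 21.2 RPKM at P28 and 9.28 at P07 (ratio 2.28, 2.11 to 2.47), with log2 ratios of 1.11 as deposited and 0.74 at equal totals, where it was not called. Mat2a, which makes the donor, had 24.5 RPKM at P28 and 19.9 at P07 (ratio 1.23, 1.14 to 1.33), with log2 ratios of 0.29 as deposited and -0.09 at equal totals. Gnmt, which consumes it, had 2.05 and 1.10 RPKM (1.86, 1.09 to 3.29), with log2 ratios of 0.54 as deposited and 0.28 at equal totals. These 3 were the measured genes of the list with an interval above 1. The 1 with an interval below 1 was Shmt2, measured through the P07 library only. It had 0.847 RPKM at P28 and 1.72 at P07 (2.04-fold lower, 1.39 to 3.04). Over the 6 partner lists together 72 of 93 genes were measured, with a median log2 ratio of -0.10. Of the 72, 1 was called lower and 2 higher (Ahcyl2 and the Y-linked Uty), where 1.96% and 1.18% of all measured genes were.

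**Figure D5:**
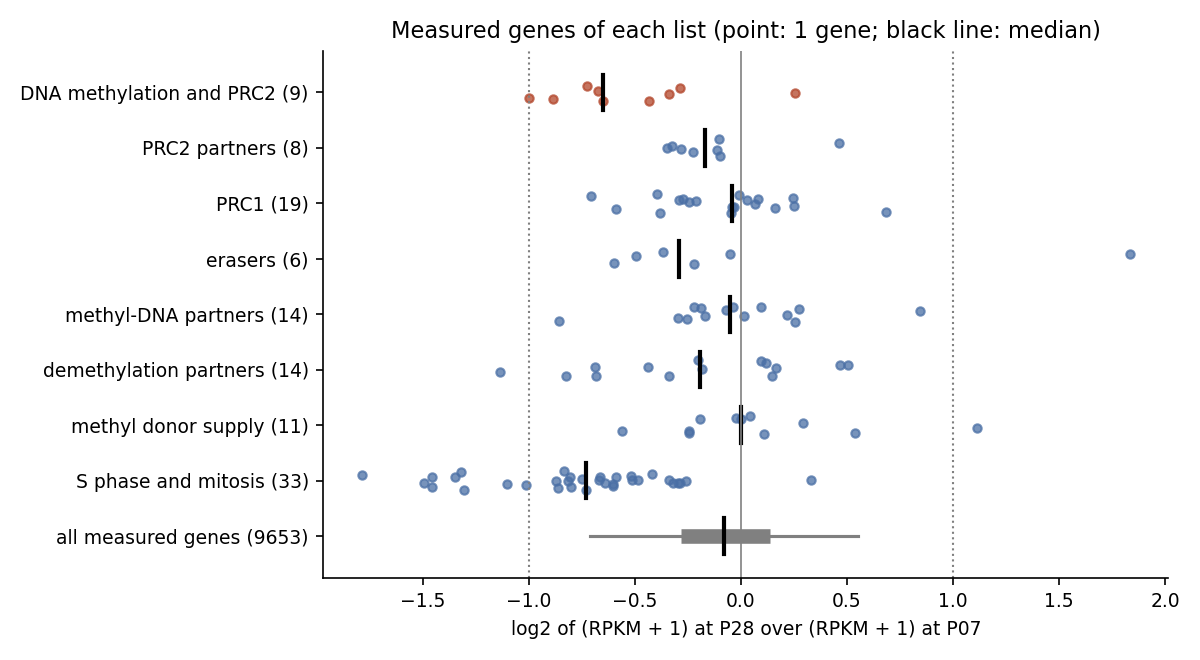
Log2 ratio of (RPKM + 1) at P28 over P07 for each measured gene (points) of the 10 genes, the 6 partner lists and the S phase and mitosis list, with list medians as black lines, 2-fold as dotted lines and all measured genes as a bar (25th to 75th percentile) with a line (5th to 95th). The median is -0.73 for S phase and mitosis, -0.10 over the partner lists together and -0.08 over all measured genes.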

How the data were processed

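RNA of sorted mouse type II pneumocytes was reverse transcribed and sequenced from Nextera XT libraries, per the labels' protocols. RPKM values were deposited by the authors, with 1 column per library, per the file headers. TopHat, TopHat2 (2.0.9) and the build GRCm38 (mm10) are listed in the submitters' processing notes without role or order. The RPKM program, annotation, filters and depth are not stated in those sources.

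Transcript lengths and positions came from GENCODE (GRCm38), using transcripts tagged with a RefSeq match, and promoter windows from RefSeq. For genes with a single length, low RPKM values fell on whole steps within 0.05 for 59.1% of 2483 genes at P28 and 62.9% of 2283 at P07, where chance gives 10%. The steps, 0.0407 and 0.0569 RPKM for 1 read on 1 kilobase, gave read numbers, which are approximate for genes with several lengths, since their mean length was used. Intervals of ratios are exact (Clopper-Pearson, or conditional for ratios of ratios) at 95%. They assume that a step is 1 read. Amplified reads carry no molecular identifiers here, so that an interval or floor holds for counting error alone.

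With 1 library per age no test was made. The log2 ratio of (RPKM + 1) was called at 2-fold among 9653 genes that reached 1 RPKM in either library, and the pseudocount understates the difference of low genes. The procedure was tested on simulated data. The 10 genes, the lists and the alternatives were chosen with earlier results of these data known. Named were the 10 genes, a fixed set of partner, proliferation and type 2 cell genes, and in each list the genes called and up to 3 further genes reaching 2 RPKM that had the most extreme log2 ratios. The values of 1 gene of the fixed set are not reported here. Dnmt3aos, Dnmt3l, E2f2, Ccne1, Shmt2 and the sex-linked and marker genes were named beside them after their values were seen. Epop and Ezhip were matched by older names, and no library column (0) went unused. Python 3.11.15, numpy 2.4.6, pandas 2.3.3 and scipy 1.17.1 were used.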

Additional observations from a re-analysis of the deposited data

How the results depend on the processing

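No paired analysis was possible because each age has 1 library, and for the same reason no library could be left out. Of the 10 genes, Uhrf1 alone was called lower as reported and without a filter. With a pseudocount of 0.1 there were 3 (Uhrf1, Tet1 and Ezh2; 5.49% of measured genes), on plain ratios, an alternative chosen after seeing the data, also 3, and with equal totals 3 (Uhrf1, Dnmt3a and Ezh2; 4.02%). With a pseudocount of 5, with the median ratio set to 0, with equal upper quartiles, or among the 4 genes reaching 5 RPKM there were 0. The pseudocount of 5 and the filter at 5 RPKM could not call Uhrf1, Tet1 or Ezh2, which stayed under 5 RPKM in both libraries. None was called higher under any of the alternatives tried, and on plain ratios the highest of the 10 was Ezh1 at 1.30. The median log2 ratio of the 9 measured genes was -0.65 and lay between -0.89 and -0.57 otherwise, except -0.27 with a pseudocount of 5. The log2 ratio of Ezh1 was 0.25 as deposited and -0.013 with equal totals. The other 9 genes stayed below 0 under each of the 5 scalings and pseudocounts tried. The ratio of Ezh1 to Ezh2 was 1.09 at P28 and 0.497 at P07 from (RPKM + 1). Partner genes called numbered 3 of 72, where 3.14% of all measured genes were called in either direction. They numbered 8 with a pseudocount of 0.1, 0 with 5, and 1 at 5 RPKM or more. With equal totals 62 of all measured genes were higher and 388 lower, so that 13.8% of those apart were higher, and 37.6% (114 higher, 189 lower) as deposited. Depth limits Uhrf1 at P28 and Dnmt3b in both libraries, which rest on about 26 to 37 reads.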
